A study of Mus musculus with 12 samples.

Results

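The type I interferon-stimulated genes described here are 41 genes chosen by name, all 41 of which are among the 23279 genes measured. They leave out the oligoadenylate synthetases, the p200 family and the interferon-inducible GTPases. They were followed by genotype on 12 single-colour expression arrays of inflammatory blood monocytes, isolated by flow cytometry as cells with CD11b, CD115 and much Ly6C on their surface. By their genotype labels 6 arrays came from TRIM33 mice, named for Trim33, a nuclear TRIM protein that binds chromatin and SMAD factors, and 6 from WT mice. Both groups carry the strain label C57BL/6 LyzCre and came from mice aged 6 to 8 weeks. In LyzCre mice the lysozyme promoter drives Cre in monocytes, macrophages and neutrophils. The labels do not say whether WT mice also had Cre, nor describe the Trim33 allele. Titles call 2 arrays of each genotype a mix. The labels tie no array to an animal, so every p-value rests on variation among arrays, some of which may be technical. The study concerns how colonic inflammation resolves.

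Type I interferons are secreted when a cell senses viral or misplaced nucleic acid. They bind the receptor chains Ifnar1 and Ifnar2, whose kinases Jak1 and Tyk2 phosphorylate Stat2, and a complex that holds Stat2 and Irf9 then binds interferon-stimulated response elements in promoters. The induced genes encode sensors of nucleic acid, transcription factors that extend the response, antiviral effectors and feedback inhibitors such as Usp18. Many of them are also read at a tonic level in resting monocytes.

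All 12 arrays carried monocyte transcripts. Csf1r, the receptor named CD115, read 9.73 to 11.1 and Ly6c2, the sorted antigen, 12.2 to 12.5 on the log2 scale, while the mean of 6 T cell markers was 3.29 to 4.60. The T cell values are given because the labels' treatment text describes a T cell sort. Trim33 averaged 6.13 ± 0.0653 in TRIM33 arrays and 6.92 ± 0.0794 in WT arrays (SD, n = 6 each), a log2 difference of -0.79 (SE 0.0671; adjusted p = 0.000637, limma with Benjamini-Hochberg adjustment). The arrays fell into 2 sets of 6 by clustering of all features other than the 41 genes, each with 3 TRIM33 and 3 WT arrays. In the Xist set Xist read 9.01 to 10.2 and the mean of 15 cell cycle genes 9.36 to 9.44. In the Y set, where the Y-linked gene Eif2s3y was high, Xist read 3.36 to 3.64 and the cell cycle mean was 4.66 to 5.67. All 4 mixes lay in the Y set, beside 1 TRIM33 and 1 WT array that were no mixes, so the sets also separate arrays of 1 preparation. Sex-linked and cell cycle transcripts cannot be told apart between the sets. Genotype is balanced over them, so adding a block for the array set leaves each log2 difference as it is under genotype alone and alters its standard error. Values of both fits are given, and every value below is on the log2 scale unless a fold is named.

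Promoters of interferon-induced genes are known for the element that the complex with Stat2 and Irf9 binds. The motif searched was the core of the response element: GAAA, any 2 bases, then GAAA. It was searched on both strands (its complement reads TTTC, any 2 bases, TTTC) in RefSeq windows of 250 bases before to 50 bases after a start site, build GRCm38.p6, counting overlapping matches. Of the 41 genes, 31 had a window, and 14 of these (45.2%) held the motif. Of all 17519 measured genes with a window, 681 (3.89%) held it. The 5 windows below all hold the motif and belong to genes whose values are discussed next. Among them are neighbouring Ifit genes that share the motif and differed in their values. Windows of other genes discussed next are not printed, and those of Irf7 and Ifit2 held no match. Each of the 5 is printed on the strand of its gene, with motif matches in capitals. The Isg15 window (chr4:156200769-156201068, minus strand) held 3 overlapping matches. The windows of Ddx60 (chr8:61927837-61928136, plus strand), Ifit1 (chr19:34640639-34640938, plus strand) and Ifit3 (chr19:34583279-34583578, plus strand) held 2 each, and that of Stat2 (chr10:128270248-128270547, plus strand) held 1.
Isg15: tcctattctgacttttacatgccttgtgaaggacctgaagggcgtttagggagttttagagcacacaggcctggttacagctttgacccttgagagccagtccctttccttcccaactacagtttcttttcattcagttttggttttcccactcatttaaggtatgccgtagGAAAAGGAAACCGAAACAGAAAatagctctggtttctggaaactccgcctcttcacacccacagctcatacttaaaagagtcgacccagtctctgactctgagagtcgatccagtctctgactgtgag
Ddx60: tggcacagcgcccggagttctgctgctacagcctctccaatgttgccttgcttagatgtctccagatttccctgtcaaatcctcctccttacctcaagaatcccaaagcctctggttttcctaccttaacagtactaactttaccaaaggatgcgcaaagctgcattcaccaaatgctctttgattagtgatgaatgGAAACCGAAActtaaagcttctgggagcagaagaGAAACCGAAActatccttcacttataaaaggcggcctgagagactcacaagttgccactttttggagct
Stat2: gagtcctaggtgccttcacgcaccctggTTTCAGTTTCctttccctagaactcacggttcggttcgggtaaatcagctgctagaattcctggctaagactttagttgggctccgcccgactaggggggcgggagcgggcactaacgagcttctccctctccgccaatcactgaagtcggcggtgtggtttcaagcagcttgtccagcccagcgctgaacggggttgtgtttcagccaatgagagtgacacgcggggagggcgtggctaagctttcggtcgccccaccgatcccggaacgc
Ifit1: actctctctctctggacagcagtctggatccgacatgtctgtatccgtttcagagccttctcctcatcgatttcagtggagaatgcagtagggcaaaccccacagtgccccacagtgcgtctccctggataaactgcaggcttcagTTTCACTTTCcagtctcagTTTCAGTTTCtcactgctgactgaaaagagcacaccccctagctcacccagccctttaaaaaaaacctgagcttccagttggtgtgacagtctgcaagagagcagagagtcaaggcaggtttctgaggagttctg
Ifit3: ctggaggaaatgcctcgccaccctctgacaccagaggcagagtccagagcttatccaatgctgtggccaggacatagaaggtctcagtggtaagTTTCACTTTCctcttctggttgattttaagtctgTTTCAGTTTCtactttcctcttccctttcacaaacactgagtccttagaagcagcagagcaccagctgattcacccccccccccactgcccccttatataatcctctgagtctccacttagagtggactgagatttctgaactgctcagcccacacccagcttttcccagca

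The genotype comparison asks which transcripts differ in Ly6C-high monocytes between TRIM33 and WT mice. Of the 41 genes, 40 lay higher in TRIM33 than in WT arrays, by a median of 0.18 with a range of -0.03 to 0.57, against a median of -0.01 and 45% above 0 over all genes. Isg15, Rtp4, Stat2, Usp18 and Lgals3bp had the largest differences, and only Adar, an RNA-editing enzyme, lay below 0. No gene of the 41 passed the threshold of adjusted p = 0.05 in either fit by limma, where 0.0215% of all genes passed under genotype alone and 0.0387% in the blocked fit. At an unadjusted p under 0.05 limma gave 1 of the 41 genes in the fit of genotype alone (3.07% of all genes) and 18 with the block (5.28% of all genes). All 18 were higher, as were 2.44% of all genes in that fit. The genes are induced together, so these counts are not independent observations, and the genes were chosen with earlier results of these data known. Under genotype alone the lowest adjusted p of the 41 was 0.999984. The standard error had a median of 0.28 without the block and 0.11 with it. Over all 12 arrays 0 of the 41 genes had every TRIM33 array above every WT array (0.103% of all genes). For 35 of the 41 the array sets described next, which each hold both genotypes, did not overlap. In those genes such a separation of the genotypes was not possible.

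**Figure D1:**
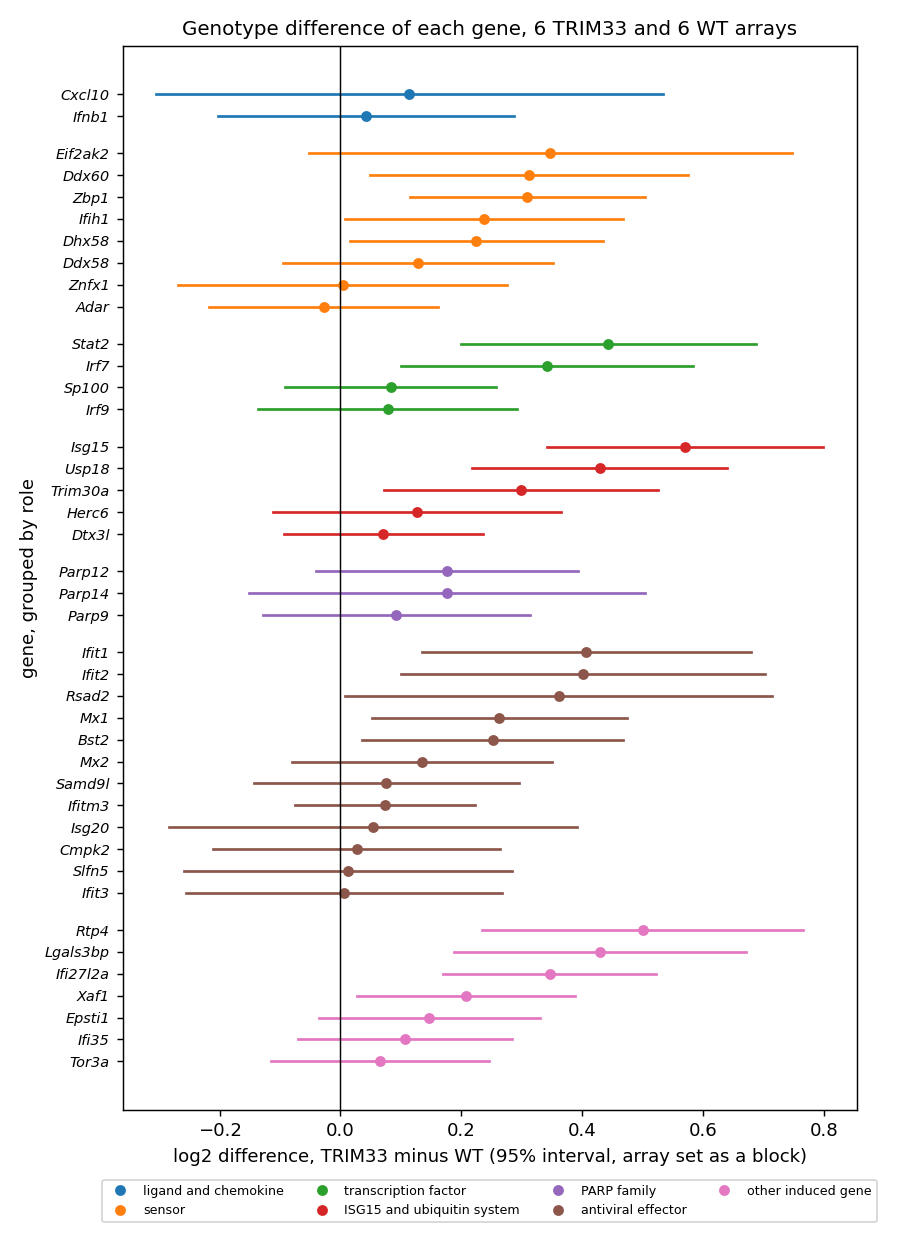
Log2 difference, TRIM33 minus WT (x axis), of each of the 41 genes (y axis, grouped and coloured by role, largest at the top of its role). Points are differences over 6 TRIM33 and 6 WT arrays and lines are 95% intervals of the blocked fit. The intervals of 18 genes lie wholly above 0, and Isg15 has the largest difference, 0.57.

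The array sets lay farther apart in these genes than the genotypes did. In Y set arrays 40 of 41 genes were higher than in Xist set arrays (49.7% of all genes), by a median of 0.93 against -0.0015 over all genes. In 35 of the 41, all 6 Y set arrays lay above all 6 Xist set arrays, as they did for 6.59% of all genes. Rsad2, which encodes viperin, an enzyme that makes a chain-terminating nucleotide, differed by 2.44, and Isg20, an RNA exonuclease, by 2.17. Rtp4 differed by 1.77, Ddx58 by 1.74 and Slfn5, a Schlafen family member, by 1.47. Cmpk2, a nucleotide kinase that lies next to Rsad2, differed by 0.18, and Ifnb1 by -0.22. These set differences are descriptions, because the sets were found in the data. The mean of the erythroid markers measured was 6.45 to 8.69 on Y set arrays and 3.82 to 4.27 on Xist set arrays, and that of the platelet markers 4.99 to 6.49 and 3.90 to 4.06. Their part in the set differences was not tested.

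**Figure D2:**
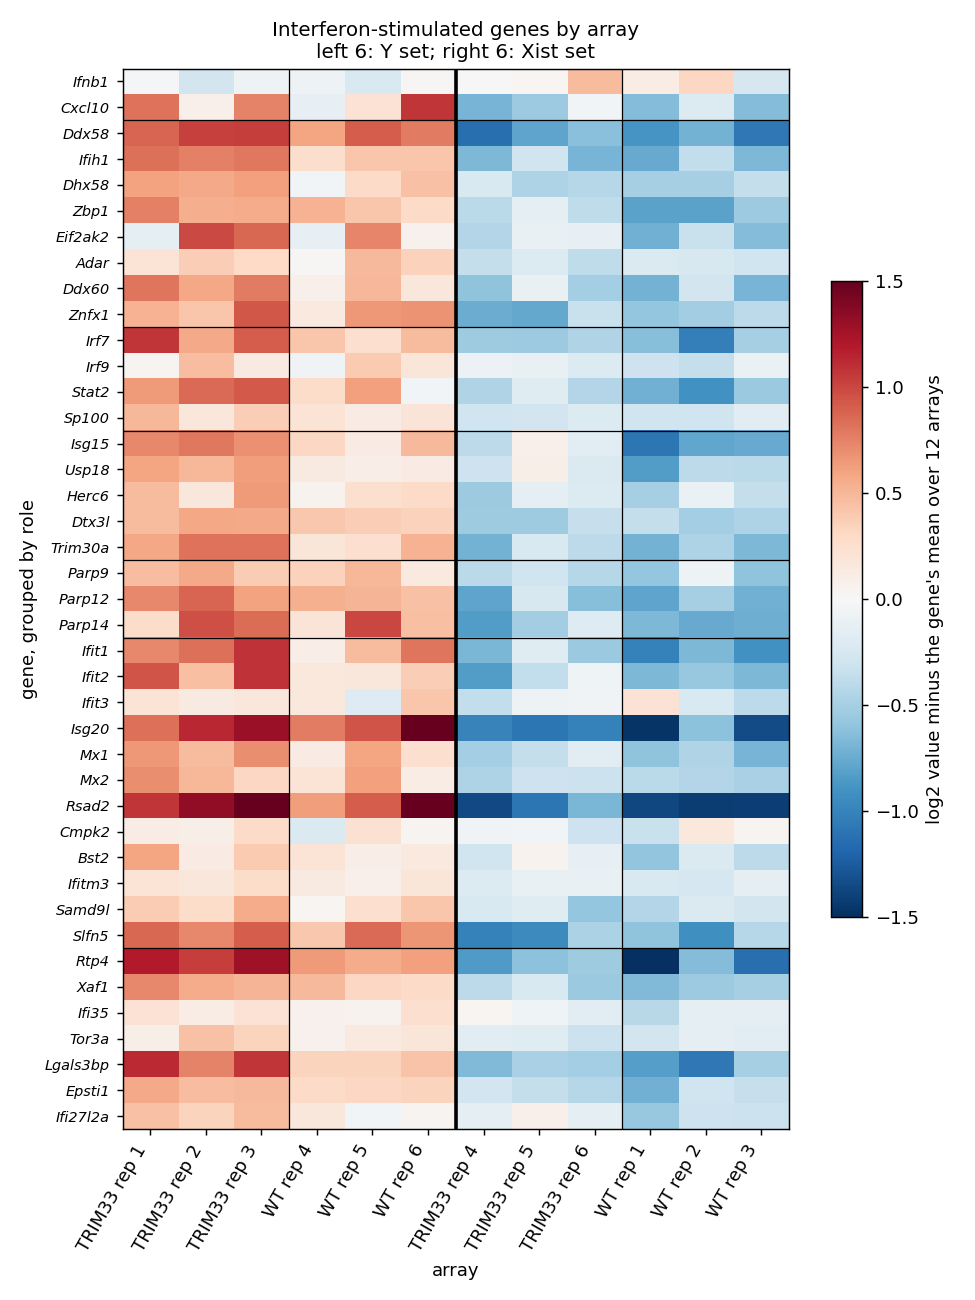
Log2 value of each gene (rows, grouped by role) on each array (columns), minus the gene's mean over the 12 arrays; red is above the mean and blue below, and colours stop at 1.5. The 6 Y set arrays at the left are red in nearly every row and the 6 Xist set arrays blue, and within the Y set the 3 TRIM33 arrays are redder than the 3 WT arrays for Isg15, Rtp4, Irf7 and Lgals3bp.

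Averaged over the 41 genes, TRIM33 arrays of the Y set read 8.45, 8.42 and 8.54, against 8.09, 8.25 and 8.28 in WT arrays of that set, with no overlap. Xist set TRIM33 arrays read 7.37, 7.56 and 7.53, against 7.25, 7.42 and 7.34 in WT arrays. There TRIM33 replicate 4 lay below WT replicate 2, so the genotypes overlapped. The median difference was 0.22 in the Y set, with 39 of 41 genes above 0 (47.4% of all genes). It was 0.11 in the Xist set, with 32 of 41 above 0 (45.8% of all genes). Fitted within the Y set, limma passed 0 of the 41 genes (0.0344% of all genes), and 12 were higher at an unadjusted p under 0.05 (2.2%). Within the Xist set it passed 0 (0.0129% of all genes), and 6 were higher at that p (2.38%). In 33 genes the Y set difference was the larger. The interaction of genotype and array set passed limma for 0 of the 41 genes (0.0043% of all genes), and 0 had an unadjusted p under 0.05 (4.21% of all genes), so no gene's genotype difference was shown to differ between the sets. The genotypes parted without overlap, TRIM33 above, in 17 genes within the Y set (4.61% of all genes) and 6 within the Xist set (4.41%). Isg15, Usp18, Stat2, Zbp1 and Ifi27l2a were the 5 that did so in each set (0.412%).

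**Figure D3:**
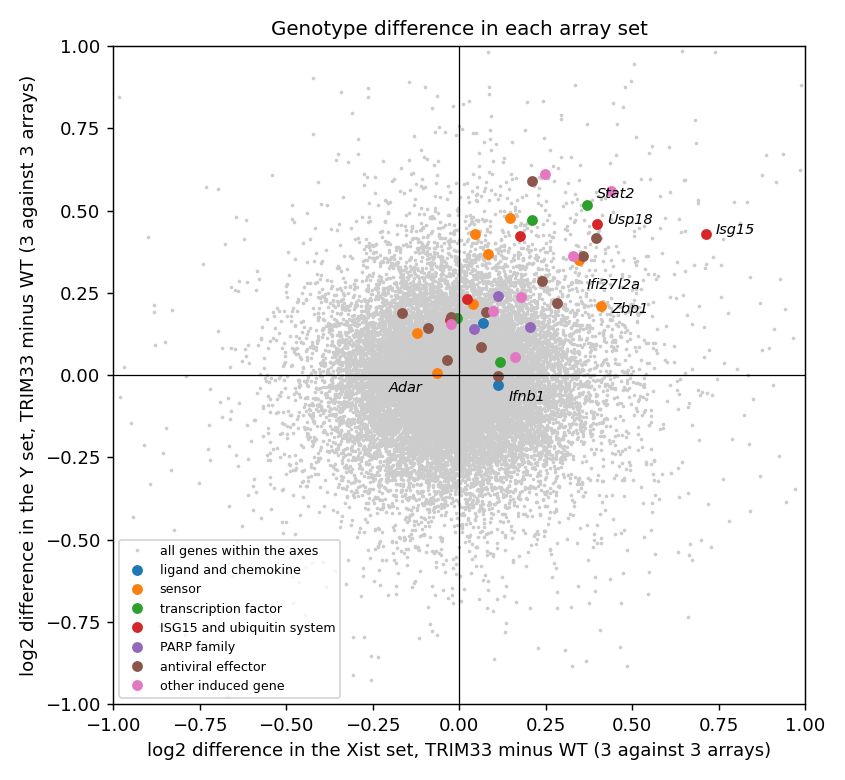
Log2 difference, TRIM33 minus WT, in the Xist set (x axis) and the Y set (y axis), 3 against 3 arrays each, for the 41 genes coloured by role and for all genes in grey. Of the 41 genes, 30 lie above 0 in both sets, with Isg15 farthest to the right at 0.71 and 0.43.

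The ISG15 and ubiquitin system held Isg15, the gene with the smallest p of the 41 in the blocked fit. Isg15 encodes a ubiquitin-like protein that is conjugated to other proteins and is also secreted. In the Y set it read 7.12, 7.19 and 7.09 in TRIM33 arrays, against 6.71, 6.52 and 6.88 in WT arrays. On the Xist set arrays it read 6.02, 6.48 and 6.23 in TRIM33 arrays, against 5.32, 5.62 and 5.65 in WT arrays. The genotypes did not overlap within either set, but over all 12 arrays the lowest TRIM33 array, in the Xist set, lay below every Y set WT array. Its difference was 0.57, a 1.48-fold higher level (SE 0.306; with the block SE 0.107, limma adjusted p = 0.116, 95% interval 0.34 to 0.80).

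Usp18 encodes the protease that removes Isg15 from its targets and that also blocks signalling at Ifnar2. It read 7.89, 7.80 and 7.93 in TRIM33 arrays of the Y set, against 7.43, 7.39 and 7.42 in WT arrays. In the Xist set it read 6.98, 7.39 and 7.08 in TRIM33 arrays, against 6.46, 6.90 and 6.90 in WT arrays. The genotypes overlapped in neither set, and the difference was 0.43 (SE 0.215; with the block SE 0.0984, limma adjusted p = 0.392). Trim30a, a TRIM family member that in mice restrains Toll-like receptor signalling, differed by 0.30. Herc6, the ligase that attaches Isg15 in mice, differed by 0.13 and Dtx3l, an E3 ligase that pairs with Parp9, by 0.07.

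Among transcription factors, Stat2 and Irf7 stood above Irf9 and Sp100 in their differences. Stat2, the STAT that is particular to type I and type III interferon signalling, read 8.26, 8.46 and 8.53 in TRIM33 arrays of the Y set, against 7.90, 8.23 and 7.58 in WT arrays. For the Xist set the values were 7.16, 7.43 and 7.18 in TRIM33 arrays, against 6.89, 6.71 and 7.06 in WT arrays. No TRIM33 array overlapped the WT arrays of its set, and the difference was 0.44 (SE 0.323; with the block SE 0.114, limma adjusted p = 0.471). Irf7, the factor that drives interferon alpha genes, read 10.34, 9.83 and 10.17 in TRIM33 arrays of the Y set, against 9.68, 9.52 and 9.74 in WT arrays. Its Xist set values were 8.74, 8.72 and 8.82 in TRIM33 arrays, which overlapped 8.63, 8.24 and 8.77 in WT arrays. Its difference was 0.34 (SE with the block 0.113). Irf9, the DNA-binding partner of Stat2, differed by 0.08 (95% interval with the block -0.14 to 0.29), and Sp100, a nuclear body protein, by 0.08.

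Of 8 sensors and nucleic acid-binding enzymes, 7 lay above 0 (45% of all genes) and 4 were higher at an unadjusted p under 0.05 in the blocked fit (2.44% of all genes). Zbp1, a sensor of left-handed nucleic acid, read 10.42, 10.21 and 10.23 in TRIM33 arrays of the Y set, against 10.19, 10.09 and 9.95 in WT arrays. Among Xist set arrays it read 9.27, 9.52 and 9.29 in TRIM33 arrays, against 8.87, 8.86 and 9.13 in WT arrays. The difference was 0.31 (SE 0.298; with the block SE 0.0907, limma adjusted p = 0.625). The genotypes overlapped in neither set, although in the Y set the nearest arrays of the genotypes were close together. Ddx60, a helicase linked to RNA sensing, read 6.15, 5.93 and 6.12 in TRIM33 arrays of the Y set, against 5.42, 5.84 and 5.52 in WT arrays. The Xist set genotypes overlapped, at 4.74, 5.23 and 4.83 in TRIM33 arrays against 4.64, 5.08 and 4.65 in WT arrays. The cytosolic RNA sensor Ifih1, also named MDA5, differed by 0.43 among Y set arrays and by 0.05 among Xist set arrays. For Dhx58, named LGP2, these values were 0.37 and 0.08. Ddx58, the sensor RIG-I, differed by 0.13 and the RNA-activated kinase Eif2ak2, named PKR, by 0.35. Within the Y set Eif2ak2 read 6.78 on the TRIM33 array that was no mix and 6.80 on its WT counterpart. It read 7.91 and 7.77 on the TRIM33 mixes and 7.65 and 6.98 on the WT mixes. Adar differed by -0.03 and the helicase-like Znfx1 by 0.0035, with 95% intervals of -0.22 to 0.16 and -0.27 to 0.28 in the blocked fit.

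Over both sets together all 12 antiviral effectors lay above 0 (45% of all genes), by a median of 0.11. In the Y set 11 did so (47.4% of all genes) and in the Xist set 8 (45.8%). Of the 12, 5 were higher at an unadjusted p under 0.05 in the blocked fit (2.44% of all genes). Ifit1, which binds RNA caps that lack methylation, read 7.43, 7.54 and 7.80 in TRIM33 arrays of the Y set, against 6.81, 7.19 and 7.51 in WT arrays. On the Xist set arrays it read 6.03, 6.53 and 6.16 in TRIM33 arrays, against 5.70, 6.04 and 5.80 in WT arrays. In each set 1 pair of arrays crossed, and the difference was 0.41 (SE 0.393; with the block SE 0.127, limma adjusted p = 0.699). Ifit2, its neighbour on chromosome 19, read 7.21, 6.72 and 7.35 in TRIM33 arrays of the Y set, against 6.43, 6.44 and 6.64 in WT arrays. In the Xist set Ifit2 read 5.43, 5.90 and 6.21 in TRIM33 arrays, against 5.60, 5.70 and 5.60 in WT arrays. Ifit2 therefore parted the genotypes in the Y set and not in the Xist set, with differences of 0.59 and 0.21 between the genotypes. Ifit3, whose window above holds the same 2 matches as that of Ifit1 in the same order, differed by 0.0053 (95% interval with the block -0.26 to 0.27), and its array sets differed by 0.30 against 1.34 for Ifit1. Ifit genes are a family of similar copies, which array probes may not separate.

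Ifitm3, a membrane protein that blocks virus entry, was the effector with the smallest standard error. It read 12.05, 12.02 and 12.12 in TRIM33 arrays of the Y set, against 11.98, 11.93 and 12.03 in WT arrays. For the Xist set the values were 11.64, 11.74 and 11.74 in TRIM33 arrays, against 11.62, 11.60 and 11.71 in WT arrays. The genotypes overlapped by a narrow margin in both sets, and the difference was 0.07 (SE with the block 0.0696, limma adjusted p = 0.962). Mx1, a dynamin-like GTPase whose gene is defective in most laboratory mouse strains, differed by 0.26 and its neighbour Mx2 by 0.13. Bst2, the tetherin that holds virions at the cell surface, differed by 0.25 and Rsad2 by 0.36. Isg20, Slfn5, Samd9l and Cmpk2 lay between 0.01 and 0.08.

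**Figure D4:**
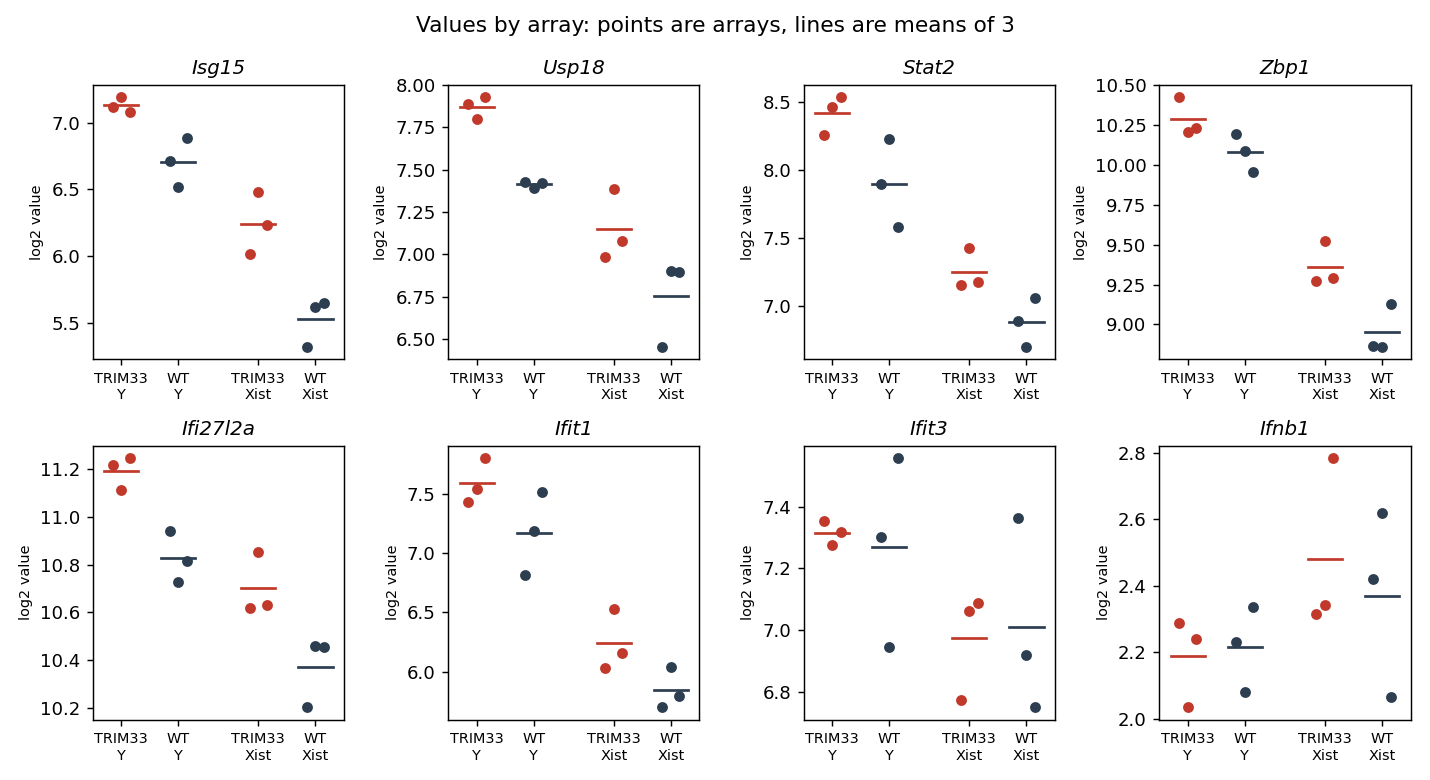
Log2 value (y axis, a different range in each panel) of 8 genes on each array, by genotype and array set (x axis); red points are TRIM33 arrays, dark points WT arrays, and each line is the mean of 3 arrays. Isg15, Usp18, Stat2, Zbp1 and Ifi27l2a part the genotypes in both sets, Ifit1 nearly so, and Ifit3 and Ifnb1 do not.

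The remaining 7 induced genes all lay above 0 over both sets together (45% of all genes), by a median of 0.21. Within the Xist set 6 of them did so (45.8% of all genes). Ifi27l2a, a small membrane protein gene, was the gene with the unadjusted p under 0.05 in the fit of genotype alone. It read 11.21, 11.11 and 11.24 in TRIM33 arrays of the Y set, against 10.94, 10.73 and 10.81 in WT arrays. Among Xist set arrays it read 10.62, 10.85 and 10.63 in TRIM33 arrays, against 10.20, 10.46 and 10.45 in WT arrays. Both sets kept the genotypes apart, and the difference was 0.35 (SE 0.152; with the block SE 0.0826, limma adjusted p = 0.397). Rtp4, a receptor transport protein that in mice restrains interferon responses, read 9.47, 9.31 and 9.55 in TRIM33 arrays of the Y set, against 8.92, 8.84 and 8.89 in WT arrays. On the Xist set arrays it read 7.44, 7.67 and 7.74 in TRIM33 arrays, against 6.75, 7.63 and 7.15 in WT arrays, where WT replicate 2 crossed into the TRIM33 range. Its difference was 0.50 (SE 0.507; with the block SE 0.124, limma adjusted p = 0.454). Lgals3bp, a secreted glycoprotein, differed by 0.61 among Y set arrays and by 0.25 among Xist set arrays. Xaf1, a pro-apoptotic factor, differed by 0.21, Epsti1 by 0.15, Ifi35 by 0.11 and Tor3a by 0.07.

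The 3 PARP family genes, which encode ADP-ribosyltransferases or relatives, all lay above 0 (45% of all genes). At an unadjusted p under 0.05 limma gave 0 of them in either fit. The shares of all genes were 3.07% under genotype alone and 5.28% with the block, so 0 of 3 sets the family apart in neither fit. Parp12 read 8.58, 8.73 and 8.46 in TRIM33 arrays of the Y set, against 8.39, 8.37 and 8.29 in WT arrays, without overlap. In the Xist set it read 7.07, 7.62 and 7.22 in TRIM33 arrays and 7.07, 7.36 and 7.14 in WT arrays, with overlap. Its difference was 0.18 (SE with the block 0.101, limma adjusted p = 0.940), that of Parp14 was 0.18 and that of Parp9 0.09.

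The ligand and the chemokine overlapped between genotypes in both sets. Ifnb1, which encodes interferon beta, had a mean in the lowest 6.86% of all genes. In the Y set it read 2.29, 2.03 and 2.24 in TRIM33 arrays, against 2.23, 2.08 and 2.34 in WT arrays. Its Xist set values were 2.32, 2.34 and 2.78 in TRIM33 arrays, against 2.42, 2.62 and 2.07 in WT arrays. The ranges of the genotypes nearly coincided, and the difference was 0.04 (SE 0.129; with the block SE 0.114, limma adjusted p = 0.991). Cxcl10, a chemokine for activated lymphocytes, read 7.85, 7.11 and 7.77 in TRIM33 arrays of the Y set, against 6.91, 7.25 and 8.10 in WT arrays. Its Xist set values were 6.33, 6.48 and 6.99 in TRIM33 arrays, against 6.38, 6.83 and 6.39 in WT arrays. Its difference of 0.11 had a 95% interval of -0.31 to 0.53 in the blocked fit, and WT replicate 6 held the highest value.

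Genes upstream of the response mostly lay near 0 or below it. So did genes at large: 45% of all genes lay above 0, with a median of -0.01. Each count above or below 0 in this paragraph stands beside that share. Of 45 measured genes on 5 lists of the pathway, 0 passed limma in either fit, and 1 had an unadjusted p under 0.05 in each fit, where 3.07% of all genes did under genotype alone and 5.28% with the block. The 7 measured receptor chains and kinases all lay below 0, between -0.14 and -0.0053, with Jak1 at -0.14. Of the 12 measured of 13 genes that induce interferon, 4 lay above 0 and 8 below, by a median of -0.06. Tlr7, the endosomal sensor of single-stranded RNA, had the smallest p of these with the block, with differences of 0.68 among Y set arrays and -0.11 among Xist set arrays. The 4 measured of 5 other interferon regulatory factors all lay below 0, by a median of -0.09, with Irf4 at -0.44. Of 9 negative regulators 3 lay above 0, by a median of -0.08, with Nlrx1, a mitochondrial NLR protein, at -0.195. Of the 13 measured of 17 further type I interferon genes 7 lay above 0, by a median of 0.01. Ifnz was the gene with an unadjusted p under 0.05, at 0.33 (SE 0.131, limma adjusted p with the block = 0.866). Interferon genes include similar copies, which array probes may not separate.

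Markers of other cells were read beside these values. Their counts above or below 0 stand beside the 45% of all genes that lay above 0. Plasmacytoid dendritic cells are known as strong interferon producers, and 2 of their 8 markers lay above 0. The mean of those markers was 4.68 to 4.83 in TRIM33 arrays and 4.67 to 4.86 in WT arrays of the Y set, and 4.08 to 4.44 in TRIM33 arrays and 4.29 to 4.38 in WT arrays of the Xist set. Siglech, their defining lectin, differed by -0.01. All 8 Ly6C-low monocyte markers lay below 0. Their mean was 7.87 to 8.83 in TRIM33 arrays and 8.497 to 8.85 in WT arrays of the Y set, where TRIM33 replicate 2 was lowest, and 6.61 to 7.01 in TRIM33 arrays and 6.88 to 7.01 in WT arrays of the Xist set. Of 9 neutrophil markers 7 lay above 0, with a mean of 5.23 to 6.33 in TRIM33 arrays and 5.26 to 5.40 in WT arrays of the Y set. There TRIM33 replicate 2 was highest. In the Xist set the neutrophil mean was 6.68 to 7.14 in TRIM33 arrays and 6.503 to 6.996 in WT arrays. Of the other immune lists 1 of 6 T cell, 2 of 4 B cell and 1 of 6 natural killer cell markers lay above 0. Of the conventional dendritic cell markers 0 of 6 did so (45% of all genes). Of the handling stress genes 1 of 10 lay above 0, with a mean of 8.29 to 9.21 in TRIM33 arrays and 8.44 to 9.87 in WT arrays of the Y set. Their Xist set mean was 7.60 to 7.96 in TRIM33 arrays and 7.53 to 7.79 in WT arrays. Of the 15 cell cycle genes 12 lay above 0 (45% of all genes), 13 within the Y set (47.4%) and 6 within the Xist set (45.8%). Their Y set mean was 4.66, 5.67 and 4.95 in TRIM33 arrays, of which replicate 2 stood apart, against 4.82, 4.98 and 4.86 in WT arrays. The part of these cells, of cycling or of handling in the interferon values was not tested. Without TRIM33 replicate 2, in the fit with the block, 15 of the 41 genes had an unadjusted p under 0.05 and 40 lay above 0, by a median of 0.17. The shares of all genes were not taken for that fit, so these counts do not show what the array contributed. In sorted bulk samples fewer cells of a type and less RNA per cell cannot be told apart.

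Genes with the motif and genes without it both leaned upward among the 41. The 14 with a match had a median difference of 0.28, all above 0 (45% of all genes). Of these, 8 were higher at an unadjusted p under 0.05 in the blocked fit by limma (2.44% of all genes). The 17 without a match in the window had a median of 0.08, with 16 above 0 (45% of all genes) and 4 higher at that p (2.44%). Between the array sets the medians were 1.05 and 0.82. Irf7, Ifit2 and Lgals3bp were among those without a match, and Ifit3 and Slfn5 among those with one. The match describes letters in this window alone. Dhx58, Zbp1, Usp18, Parp9, Parp14, Mx1, Mx2, Rtp4, Tor3a and Ifi27l2a had no window. Among them Dhx58, Zbp1, Usp18, Mx1, Rtp4 and Ifi27l2a were also higher at an unadjusted p under 0.05 in the blocked fit by limma (2.44% of all genes). Whether the genes without a window hold the motif is not known here, and the contrast of genes with and without it leaves them out.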

How the data were processed

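RNA came from 12 samples by an RNeasy Mini kit, and biotinylated cDNA was made from 900 pg of it with NuGEN's Ovation PicoV2 chemistry, per the labels' protocols. The authors deposited log2 values, 1 for each gene-level feature, made with RMA and Partek per the submitters' processing notes. For their versions, the chip definition and any batch step the sources used here say nothing. RMA equalises distributions between arrays and can compress differences of dim genes. Arrays carry no counting depth, so their number limits the precision.

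Of 24479 features, 23281 carried 1 symbol, 0 several and 1198 none. For 2 symbols with more than 1 feature the brighter was kept. limma 3.58.1 (lmFit, eBayes; R 4.3.3) tested TRIM33 minus WT over the whole table, with Benjamini-Hochberg adjustment over 23279 genes and a threshold of 0.05. The array sets came from clustering by correlation distance with average linkage. The members and lists, and the array set as a block, were chosen with earlier results of these data known. Full values by array are given for the genes with the smallest p in the blocked fit within each role (2, or 1 for the PARP family), plus Ifnb1, Irf7, Ifit1 and Ifitm3. Of the other pathway genes, the 1 with the smallest p of each list is named. Eif2ak2 by array, Siglech and the genes of the closing observations were named after their values were seen. Cell type markers were read from fixed lists. Alternatives covered normalization, filters, variance models, weights, preparation, subsets and each array left out. Promoter windows came from RefSeq, build GRCm38.p6. Figures were drawn with matplotlib 3.10.9.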

Additional observations from a re-analysis of the deposited data

How the results depend on the processing

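The count of 0 genes past the threshold, the median difference and the count above 0 kept their side under every alternative run, and the interaction count stayed at 0. What depended on the setting was the count of the 41 genes at an unadjusted p under 0.05, which was 1 with genotype alone. The share of all genes at that p is given above for genotype alone, for the block and, for higher genes, within each set. For the other settings that share was not taken, so their counts cannot be set against all genes. The count was 18 with the array set as a block, 0 after quantile normalization and 4 with preparation as a covariate. It was 4 with the mix number as a replicate block and 0 in the arrays not titled as mixes. Within the Y set it was 12 and within the Xist set 6. Chosen after seeing the data, the block gave 12 without the mixes, 19 with preparation, 17 after quantile normalization and 18 with trend and robust variances. Leaving out each array gave 0 to 3 genes without the block and 13 to 19 with it. The median then ran from 0.07 to 0.31 without the block, where leaving out an array unbalances the sets, and from 0.14 to 0.21 with it. Without the block it was 0.07 to 0.11 with any 1 of TRIM33 replicates 1 to 3 or WT replicates 1 to 3 left out, and 0.24 to 0.31 with any other array left out. Of the 41 genes, 31 to 41 then lay above 0, and 35 to 40 with the block. Trim33 passed with any 1 array left out. It differed by -0.77 in the arrays not titled as mixes (adjusted p = 0.155, and 0.0457 with the block), and did not pass at -0.79 within the Y set (0.134) and -0.79 within the Xist set (0.227). Differences of mix 1 and mix 2 correlated between the genotypes with r = 0.118 over all genes and 0.512 over the 41. The labels do not say what the mix number marks, and the pairs are 2. With the replicate block 0 of the 41 genes passed the threshold, as without it. That block put all arrays not titled as mixes together across both sets, so it cannot decide whether the mixes are paired. Precision rests on 6 arrays per genotype, with probes of similar gene copies not told apart.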

Other observations

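Outside the 41 genes, 667 measured genes held the response element core described above in their promoter window. Of these, 21 (3.15%) were higher in TRIM33 arrays at an unadjusted p under 0.05 with the array set as a block, against 350 of 16821 (2.08%) of the other genes with a window. Their median log2 differences were -0.0068 and -0.015. Oas1g, an oligoadenylate synthetase family member, was the 1 among the 21 that passed limma, at 1.70 (adjusted p = 0.000341 with the block). Other interferon-induced genes among the 21 were Oas1a at 0.47, Oas3 at 0.33, Ifi213 at 0.64, Ifit1bl1 at 0.56 and Ifitm2 at 0.19. The rest included Rps23, a ribosomal protein gene, at 0.41 and Kif14, a mitotic kinesin, at 0.38. These genes were named after their values were seen, and the comparison is a description without a test.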
